A study of Mus musculus with 24 samples.

Results

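The Period genes Per1, Per2 and Per3 were followed across 2 circadian cycles in the mouse suprachiasmatic nucleus (SCN), the paired hypothalamic nucleus that keeps daily time for the body. They were taken by gene symbol, and all 3 were on the array, among 19938 genes with a probe set of a single symbol. Each was read by 1 probe set (a group of probes to one transcript), and no probe set that names several genes held a Period symbol. Every sample was SCN of C57/BL6 mice that had lived for weeks under 12 h of light and 12 h of darkness and were then kept in complete darkness. RNA of 3 mice was pooled in equal amounts for each array. Collections were 2 h apart, the earliest at circadian time (CT) 18 and the last at CT 64, and filled 24 arrays with no time repeated. The second cycle (CT 42 to CT 64) and the first cycle (CT 18 to CT 40) hold 12 arrays each at the same 12 circadian times, counted from 0 h, the start of the subjective day. Age, sex and genotype beyond the strain were not given in the sources used here. The arrays 24 h apart were the nearest the design has to replicates, and p-values measure only the spread between these pooled samples.

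PER proteins are the negative arm of the mammalian clock. CLOCK and BMAL1 (the product of Arntl) bind E-box elements and activate the Per and Cry genes, and PER proteins, bound to CRY, return to the nucleus and repress that activation. Casein kinase 1 phosphorylates PER proteins, which are then marked for degradation through the βTrCP ubiquitin ligase, and the loop begins again. Per1 and Per2 are also induced by light at night through cAMP response elements, whereas mice without Per3 keep a nearly normal clock.

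Promoter windows are shown because elements of the kinds named above act in the DNA around the start of a gene. RefSeq windows (build GRCm38.p6, 250 bases before to 50 after a start) matched Per1, with 2 annotated starts, and Per3. Per2 did not match. Each line reads 5′ to 3′ on the strand of the gene, and capitals mark the motifs found.
Per1, upstream start, chr11:69098699-69098998 (+): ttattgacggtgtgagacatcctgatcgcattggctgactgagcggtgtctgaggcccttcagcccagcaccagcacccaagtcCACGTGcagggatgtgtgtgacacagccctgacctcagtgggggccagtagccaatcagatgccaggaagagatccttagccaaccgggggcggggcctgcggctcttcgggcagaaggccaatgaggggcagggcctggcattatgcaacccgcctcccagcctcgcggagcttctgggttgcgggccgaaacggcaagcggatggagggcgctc
Per1, downstream start, chr11:69099902-69100201 (+): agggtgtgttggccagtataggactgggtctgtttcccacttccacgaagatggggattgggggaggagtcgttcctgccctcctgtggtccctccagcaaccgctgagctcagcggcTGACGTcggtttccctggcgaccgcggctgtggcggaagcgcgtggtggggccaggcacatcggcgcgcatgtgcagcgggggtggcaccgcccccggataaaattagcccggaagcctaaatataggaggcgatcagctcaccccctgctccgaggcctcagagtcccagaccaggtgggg
Per3, chr4:151044616-151044915 (-): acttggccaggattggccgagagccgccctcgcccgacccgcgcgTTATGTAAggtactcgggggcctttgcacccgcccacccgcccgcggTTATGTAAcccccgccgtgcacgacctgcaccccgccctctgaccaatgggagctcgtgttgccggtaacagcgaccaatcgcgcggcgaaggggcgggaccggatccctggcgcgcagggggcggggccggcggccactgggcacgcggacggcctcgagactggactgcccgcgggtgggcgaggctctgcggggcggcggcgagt
The motifs searched, on both strands, were the E-box CACGTG, its variant CACGTT, the D-box TTATGTAA, the cAMP response element TGACGTCA and its core TGACGT, whose letters lie within the full element. The upstream Per1 window held CACGTG 166 bases before the start, a motif found in 7.15% of 32851 promoter windows. The downstream Per1 window held TGACGT 132 bases before the start, found in 7.51% of windows. The Per3 window held TTATGTAA 205 and 158 bases before the start, and 0.938% of windows held that motif at least 1 time and 7 windows held 2 or more. CACGTT (4.68% of windows) and TGACGTCA (1.79%) were in none of these 3 windows. Only these exact letters were searched, so other forms of an element were not marked in any window. A match describes letters in the window and not binding.

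The samples held SCN transcripts together with those of neighbouring tissue, and 3 arrays stood apart. All 13 SCN markers were above the filter on dim genes, among them Avp (mean log2 intensity 10.97), Vip (10.05) and Six6 (7.97). Of 10 markers of neighbouring hypothalamic neurons 9 were above it too, among them Oxt (11.85), as were all 9 oligodendrocyte markers, such as Mbp (10.53). Those of CT 40, CT 62 and CT 64 held a narrower range of values than the rest (interquartile range 2.48, 2.67 and 2.65, where the others had 2.72 or more). Their mean over 1194 olfactory and vomeronasal receptor genes, used as a measure of array background, was 0.34, 0.19 and 0.16 above the series mean. Of 7 anterior pituitary markers 4 were above the filter, and their mean was high on the arrays at CT 18 to CT 26, with up to 2.21 above the series mean at CT 20. Tissue was bulk, so fewer cells and less RNA per cell cannot be told apart.

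Per1, the Period gene that responds fastest to light, was already above the midpoint between its lowest and highest array at the start of the subjective day. It reached its top in the middle of that day. At 18 h its log2 intensity was 6.997 in the second cycle and 7.05 in the first, at 20 h 7.47 and 7.39, and at 22 h 7.23 and 7.29. From 0 to 4 h it was 7.59, 7.60 and 7.77 in the second cycle, and 7.58, 7.55 and 7.67 in the first. The cycles were within 0.10 of each other at each of these 6 times. From 6 to 12 h it was 8.11, 7.87, 7.87 and 7.83 in the second cycle, and 7.74, 7.63, 7.58 and 7.49 in the first. At 14 h it was 7.39 and 7.27, and at 16 h 7.45 (CT 64) and 6.93 (CT 40). Each array from 0 to 12 h was higher than each array at the other times, the nearest being 7.49 at CT 36 and 7.47 at CT 44. The gap between these 2 arrays is smaller than the SD of 1 Per1 array given below (0.13). The hours were picked from these values and other genes were not counted in this way, so this is a description without a test.

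Per2, whose product partners CRY in the repressor complex, stayed low through the late night and rose only after the start of the subjective day. At 18, 20, 22 and 0 h it was 6.87, 6.93, 6.80 and 6.92 in the second cycle, and 6.81, 6.82, 6.86 and 6.80 in the first. At 2 h it was 6.96 and 7.01, and at 4 h 7.33 and 7.26. From 18 to 0 h the level stayed between 6.80 and 6.93, and by 4 h it was above that range in both cycles. From 6 to 12 h it was 7.53, 7.54, 7.60 and 7.91 in the second cycle, and 7.39, 7.72, 7.50 and 7.59 in the first. At 14 h it was 7.41 and 7.41, and at 16 h 7.06 and 7.07. The arrays from 4 to 14 h, between 7.26 and 7.91, did not overlap the others, between 6.80 and 7.07. These hours were also picked from the values, and other genes were not counted in this way.

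Per3, the most divergent of the family, moved least. At 18, 20, 22 and 0 h it was 7.09, 7.14, 7.20 and 7.16 in the second cycle, and 6.98, 7.07, 6.99 and 7.05 in the first. At 2 h it was 7.01 and 7.02, and at 4 h 7.32 and 7.18. From 18 to 2 h all Per3 values lay between 6.98 and 7.20, and the highest levels, averaged over both cycles, came at 6 and 8 h. From 6 to 12 h it was 7.39, 7.56, 7.43 and 7.42 in the second cycle, and 7.57, 7.54, 7.32 and 7.43 in the first. At 14 h it was 7.18 and 7.13. At 16 h it was 7.32 on the CT 64 array and 6.76 on the CT 40 array, both of narrow range, which is the widest gap between cycles of any Period gene.

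**Figure D1:**
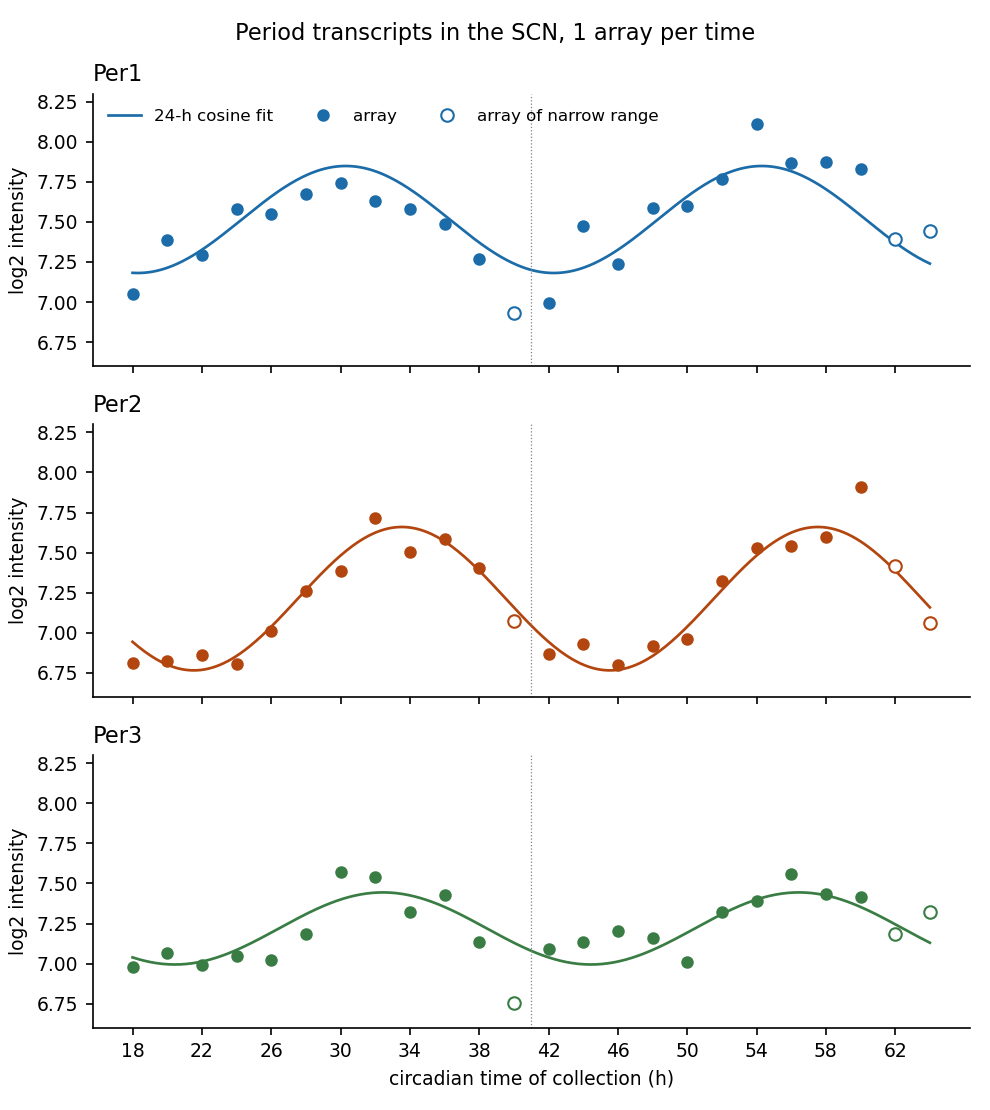
Log2 intensity of Per1, Per2 and Per3 (vertical axis) on each of the 24 arrays against circadian time of collection in hours, with the fitted 24-h cosine as a line. Open circles are the 3 arrays of narrow range (CT 40, CT 62, CT 64), and the dotted line separates the cycles; Per1 and Per3 at CT 40 lie 0.31 and 0.37 below the curve.

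Ordered by the mean of both cycles, Per1 was lowest at 18 h (7.03) and highest at 6 h (7.93), Per2 lowest at 22 h (6.83) and highest at 12 h (7.75), and Per3 lowest at 2 h (7.01) and highest at 8 h (7.55). The SD of 1 array, taken from the differences between arrays 24 h apart, was 0.13 for Per1, 0.09 for Per2 and 0.13 for Per3. Along the ordered levels, 3 of 11 steps between neighbours exceeded it for Per1, 5 of 11 for Per2 and 1 of 11 for Per3. The other neighbours did not differ beyond this spread. The widest step of Per2, 0.23, lay between 16 h and 4 h, which parts its low from its high hours. The 4 lowest levels of Per2, at 22, 18, 0 and 20 h, lay between 6.83 and 6.88.

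All 3 Period genes were called rhythmic over 24 h (adjusted p under 0.05), against 7.65% of the 13956 genes tested by limma's moderated F test with Benjamini-Hochberg adjustment. Per2 was second among all tested genes by p, with an amplitude, in log2 units from mean to peak, of 0.45 ± 0.03 (SE of the fit, 24 arrays, limma adjusted p = 2.82e-09). Per1 was number 26, with an amplitude of 0.33 ± 0.05 (1.59-fold from trough to peak, limma adjusted p = 1.86e-04). Per3 was number 90, with 0.22 ± 0.04 (1.37-fold, limma adjusted p = 0.00336). The cosine took up 90.4% of the variance of Per2, 68.9% of Per1 and 59.0% of Per3. By amplitude among the 1067 called genes they were number 15 (Per2), 37 (Per1) and 171 (Per3). With the 3 arrays of narrow range left out, the amplitudes were 0.44, 0.32 and 0.22 for Per2, Per1 and Per3, and all 3 stayed called.

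The fitted peaks came in the order Per1 (6.30 ± 0.53 h), Per3 (8.44 ± 0.67 h) and Per2 (9.53 ± 0.28 h), all in the subjective day. The 3 pairs were compared with a two-sided permutation test that exchanges the scaled values of both genes array by array, adjusted over the 3 pairs. Per2 peaked 3.23 ± 0.54 h after Per1 (95% interval 2.11 to 4.36 h, permutation adjusted p = 0.00015). Per3 peaked 2.14 ± 0.69 h after Per1 (0.70 to 3.58 h, permutation adjusted p = 0.00422). Per2 was 1.09 ± 0.68 h after Per3, which did not pass (-0.32 to 2.51 h, permutation adjusted p = 0.176), so a lag of up to 2.51 h lies within the interval. The order Per1, Per3, Per2 was also that of the fitted peaks in the second cycle alone and in the first alone. When peaks were read from a curve with 24-h and 12-h terms, neither lag after Per1 passed (2.35 h for Per2, permutation adjusted p = 0.139, and 0.85 h for Per3, permutation adjusted p = 0.345). Without the arrays at CT 18 to CT 26, where pituitary markers were high, the lag of Per3 after Per1 was 1.69 h and did not pass (permutation adjusted p = 0.0786), and without CT 64 that of Per2 after Per3 passed (permutation adjusted p = 0.0497).

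**Figure D2:**
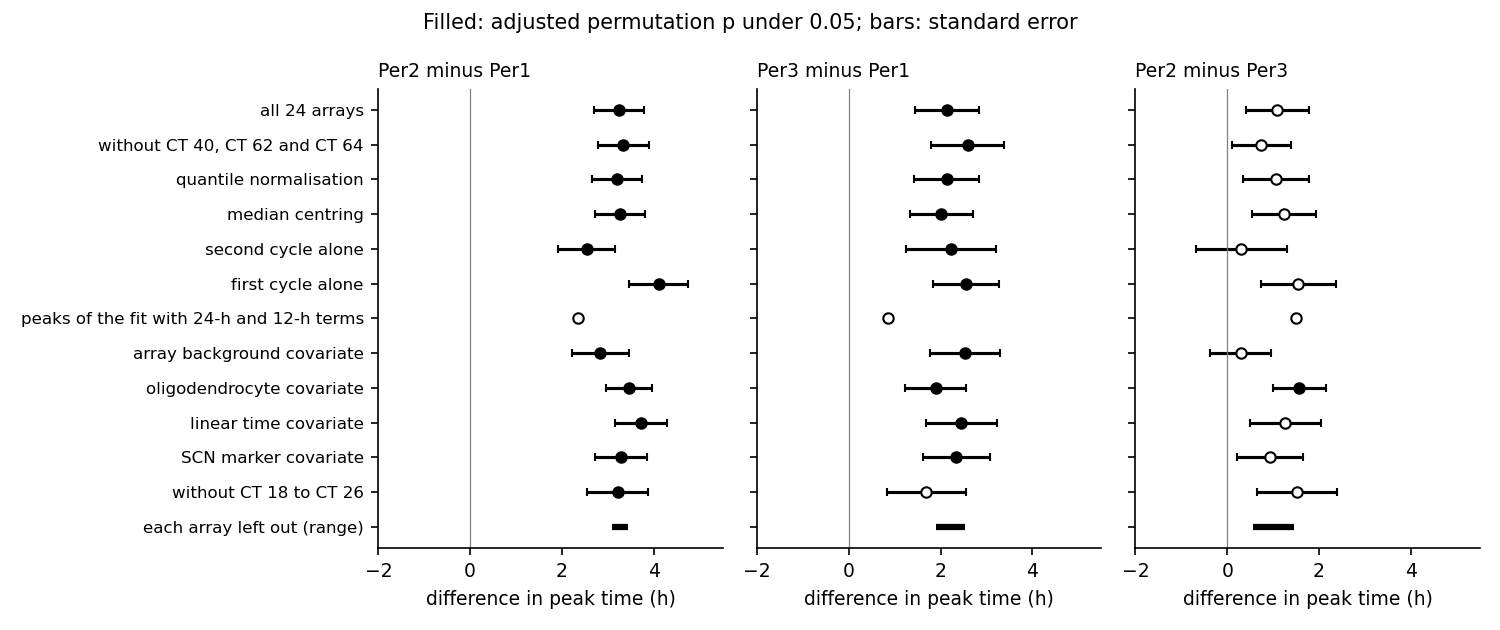
Difference in fitted peak time in hours (horizontal axis) for the 3 pairs of Period genes under each setting (rows), with SE bars where a fit gives one; filled points had an adjusted permutation p under 0.05, and thick bars give the range over the arrays left out in turn. Per2 minus Per1 lies between 2.35 and 4.10 h in all settings, and Per2 minus Per3 between 0.29 and 1.57 h.

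The upward limbs of the 3 genes were spread more widely in time than the downward limbs. The rise of a gene is given here as its last upward crossing, before its highest array, of the midpoint between its lowest and highest array, and the fall as the first downward crossing after it. Per1 crossed upward at 23.8 h in the second cycle and 22.3 h in the first, in the late subjective night. In the first cycle Per1 was also above its midpoint (7.34) at 20 h, and below it again at 22 h. Per2 crossed at 4.28 h and 4.02 h, and Per3 at 3.77 h and 3.74 h. Per2 thus crossed 4.47 h after Per1 in the second cycle and 5.71 h after it in the first, but 0.51 h and 0.27 h after Per3. On the way down Per1 crossed at 13.3 h and 13.4 h, Per3 at 13.2 h and 13.8 h, and Per2 at 14.3 h and 14.9 h. The span between the earliest and the latest gene was 4.47 h upward and 1.189 h downward in the second cycle, and 5.71 h upward and 1.47 h downward in the first. These crossings rest on single arrays and were not tested.

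Between these crossings Per1 stayed above its midpoint for 13.4 h in the second cycle and 15.1 h in the first, Per2 for 10.1 h and 10.9 h, and Per3 for 9.39 h and 10.1 h. These stretches leave out the Per1 array at CT 20 and the Per3 array at CT 64, which were above the midpoint outside them. The steepest 2-h rise of Per1 came at night, between 18 and 20 h, by 0.48 in the second cycle and 0.33 in the first, and the level at 22 h was lower than at 20 h in both. The mean of the SCN markers also moved there, from -0.07 to 0.09 between CT 42 and CT 44 and from -0.23 to 0.27 between CT 18 and CT 20. Over the next step, where Per1 fell in both cycles, that mean rose to 0.29 at CT 46 and fell to -0.05 at CT 22. The mean of the oligodendrocyte markers went from 0.38 to -0.15 between CT 42 and CT 44, and from -0.02 to 0.43 between CT 18 and CT 20. The part of tissue content in these steps was not tested. Per2 rose most between 2 and 4 h in the second cycle (0.36) and between 6 and 8 h in the first (0.33), and Per3 between 2 and 4 h (0.31) and between 4 and 6 h (0.39). All 3 genes fell most steeply over the same step, from 12 to 14 h in the second cycle, by 0.44 (Per1), 0.50 (Per2) and 0.23 (Per3), and from 14 to 16 h in the first, by 0.34, 0.33 and 0.38. Both steps end on an array of narrow range, CT 62 and CT 40, and the part of the array in them was not tested.

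A 12-h component beside the 24-h terms, which can give a wave with unequal limbs or a sharp peak, was not called for any Period gene. Of all tested genes 0.0358% were called (5 genes, and 21.9% at an unadjusted limma p under 0.05). The amplitude of the 12-h component was 0.06 ± 0.05 in Per1 (limma adjusted p = 0.617), 0.05 ± 0.03 in Per2 (0.551) and 0.10 ± 0.04 in Per3 (0.205). Per3 had the smallest unadjusted limma p, 0.0375, and its fitted curve with both terms explained 70.3% of the variance against 59.0% with 1 cosine. In that curve Per3 rose for 15.7 h and fell for 8.3 h. The curves of Per1 and Per2 rose for 14.25 and 13.25 h and fell for 9.75 and 10.75 h. These lengths describe fitted curves whose 12-h terms were not called. Averaged over both cycles, Per3 itself stayed between 7.01 and 7.10 from 16 to 2 h, with its lowest level at 2 h.

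**Figure D3:**
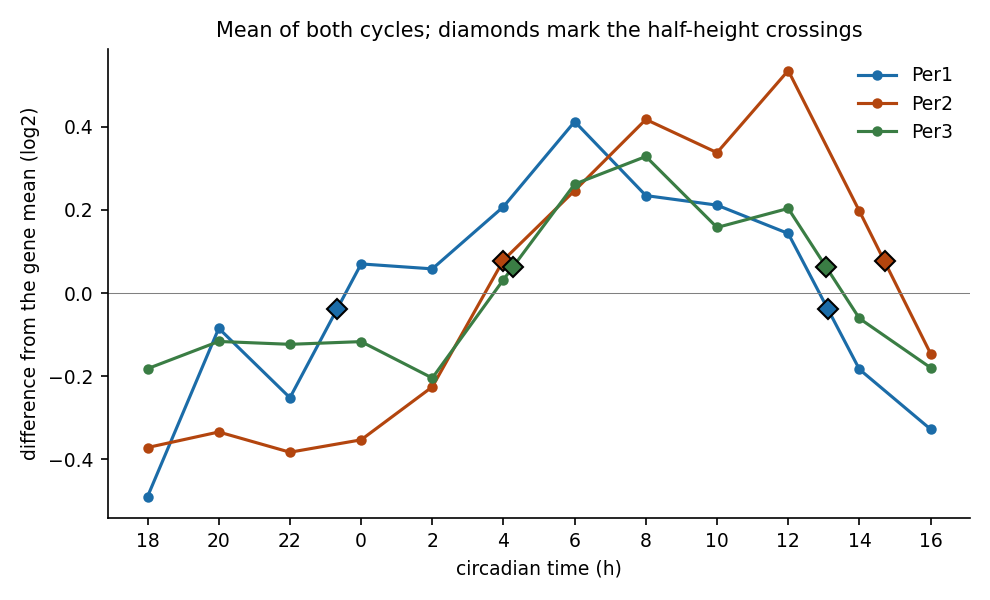
Mean of both cycles for each Period gene, as the log2 difference from that gene's own mean (vertical axis), against circadian time in hours; diamonds mark the crossings of the midpoint between lowest and highest mean. Per1 crosses upward at 23.3 h, ahead of Per2 at 3.98 h and Per3 at 4.26 h, while the downward crossings lie between 13.1 and 14.7 h.

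Per2 repeated itself most closely from cycle to cycle. Over the 12 pairs of arrays 24 h apart, its values correlated with a Pearson r of 0.94 (permutation p = 5e-05, adjusted for the 3 correlations 0.00015) and a Spearman rho of 0.92 (permutation p = 0.00011). For Per1, r was 0.81 (permutation p = 0.00122, adjusted 0.00183) and rho 0.83 (permutation p = 0.00154). For Per3, r was 0.70 (permutation p = 0.0123, adjusted 0.0123) and rho 0.66 (permutation p = 0.0219). All 3 genes were called rhythmic on these same arrays, so small p-values here add little beyond that shared rhythm. Leaving out the 2 pairs farthest from the median of the first cycle gave r of 0.97 for Per2 and 0.88 for Per1. For Per3 it gave 0.52 over 10 pairs (permutation p = 0.124), without CT 30 and CT 32, its highest first-cycle arrays, whose loss also narrows the range of values. Without 14 and 16 h, the times that hold the arrays of narrow range, r was 0.94, 0.93 and 0.89 for Per2, Per1 and Per3. After quantile normalisation r was 0.93, 0.81 and 0.59 in the same order, with a permutation adjusted p of 0.0444 for Per3. The SD of the differences was 0.13 for Per2, 0.18 for Per1 and 0.18 for Per3.

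No Period gene passed limma's test of a change in level between cycles, adjusted over all tested genes, and 0 of the tested genes (0%) were called higher in the second cycle by limma, with 646 (4.63%) higher at an unadjusted p under 0.05. Per1 averaged 7.60 ± 0.31 in the second cycle and 7.43 ± 0.25 in the first (SD, n = 12 each), a difference of 0.17 ± 0.06 (limma adjusted p = 0.446). It was higher in the second cycle in 10 of 12 pairs, and an exact sign-flip test of its 12 differences gave p = 0.00830, and 0.0249 adjusted for the 3 sign-flip tests, without regard to the other genes on the array. The difference was largest at 16 h (0.52, where both arrays are of narrow range), between 0.24 and 0.37 from 6 to 12 h, 0.12 at 14 h, between -0.06 and 0.09 from 18 to 2 h, and 0.10 at 4 h. Per2 averaged 7.24 ± 0.36 and 7.19 ± 0.33 (difference 0.05 ± 0.05, limma adjusted p = 0.771). Per3 averaged 7.27 ± 0.16 and 7.17 ± 0.25 (difference 0.10 ± 0.05, limma adjusted p = 0.616). Pituitary markers went the other way, with a mean of -0.35 in the second cycle and 0.35 in the first. With their mean as a covariate the difference in Per1 was 0.27 (limma adjusted p = 0.380), and without CT 18 to CT 26 it was 0.27 (0.362).

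**Figure D4:**
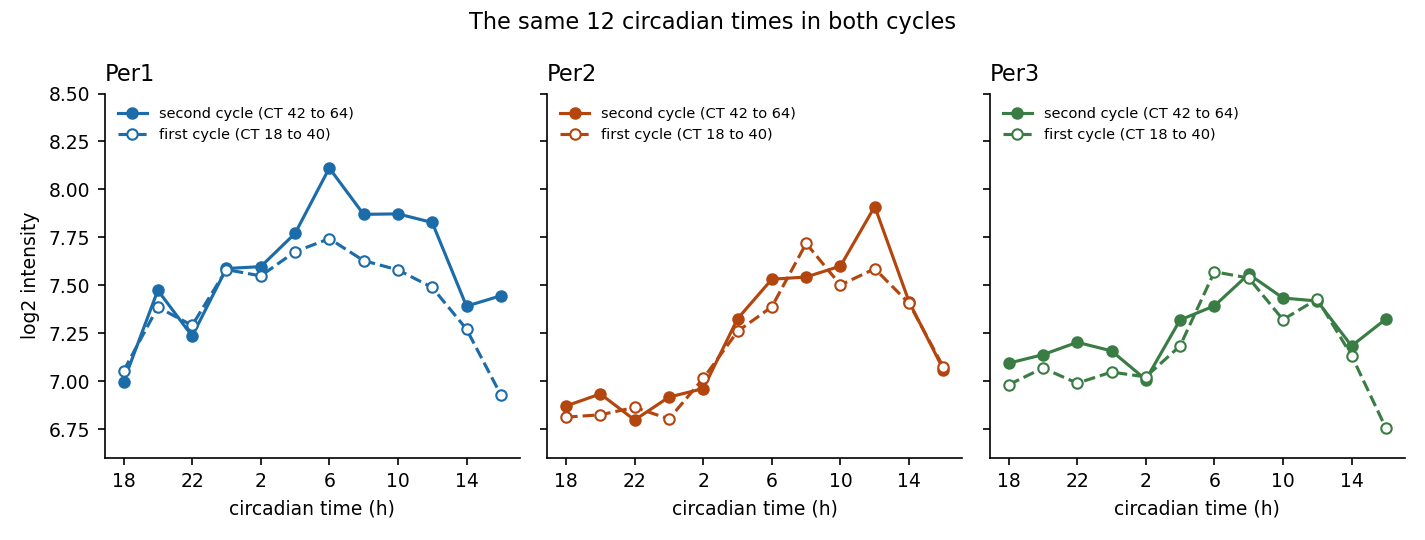
Log2 intensity (vertical axis) of each Period gene at the same 12 circadian times, in hours, in the second cycle (filled circles, solid line) and the first cycle (open circles, dashed line), 1 array per point. Per2 differs by at most 0.32 (at 12 h), Per1 is higher in the second cycle from 6 to 16 h, and the cycles part most at 16 h in Per1 (0.52) and Per3 (0.57).

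No change in timing or amplitude between cycles passed the test of the interaction, which called 0 of the tested genes by limma (0%, and 338 genes or 2.42% at an unadjusted p under 0.05). The limma adjusted p was 0.9999 for each Period gene and the unadjusted limma p 0.103 for Per1, 0.854 for Per2 and 0.228 for Per3. Fitted alone, Per1 peaked at 7.11 ± 0.65 h in the second cycle and 5.31 ± 0.59 h in the first, Per3 at 9.35 ± 0.93 h and 7.87 ± 0.85 h, and Per2 at 9.65 ± 0.46 h and 9.41 ± 0.32 h. The amplitude was 0.38 ± 0.06 and 0.31 ± 0.05 for Per1, 0.18 ± 0.04 and 0.28 ± 0.06 for Per3, and 0.46 ± 0.06 and 0.43 ± 0.04 for Per2. The best-fitting period, searched from 20 to 28 h, was 24.3 h for Per2, with a 95% range of 23.4 to 25.3 h. It was 24.4 h for Per3, with a 95% range of 22 to 27.6 h. For Per1 it was 26.1 h, with a range from 24.0 h up to the limit of the search.

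The partners of the Period genes in the loop were mostly rhythmic too. Of 15 other core clock genes 12 were called, against 7.65% of all tested genes, and the median amplitude of the 15 was 0.19, against 0.07 over all tested genes. Of the 12, 10 peaked in the subjective day and 2 in the subjective night. The list was chosen with results of these data known. Both cryptochromes, the partners of PER in repression, were called: Cry2 peaked at 7.27 ± 0.69 h, between Per1 and Per3, and Cry1 at 10.3 ± 0.84 h, nearest to Per2. Of the activators, Arntl was called, with a peak at 21.8 ± 0.81 h, and Clock was not (amplitude 0.09 ± 0.04, limma adjusted p = 0.182). All 4 nuclear receptors that act on Arntl were called and peaked before Per3, namely Rorb at 3.41 h, Nr1d1 at 3.89 h, Rora at 5.94 h and Nr1d2 at 6.04 h.

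Factors of the D-box, an element searched above only as TTATGTAA, all passed. The activators Hlf, Dbp and Tef peaked at 7.25, 7.29 and 8.43 h. The repressor Nfil3 peaked at 19.1 ± 0.50 h, in the subjective night. Of the E-box repressors, Ciart was called (7.62 ± 0.63 h), and Bhlhe40 and Bhlhe41 were not (amplitudes 0.10 ± 0.04 and 0.13 ± 0.04, limma adjusted p = 0.133 and 0.0600). Differences in peak time between Period genes and these genes were not tested.

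**Figure D5:**
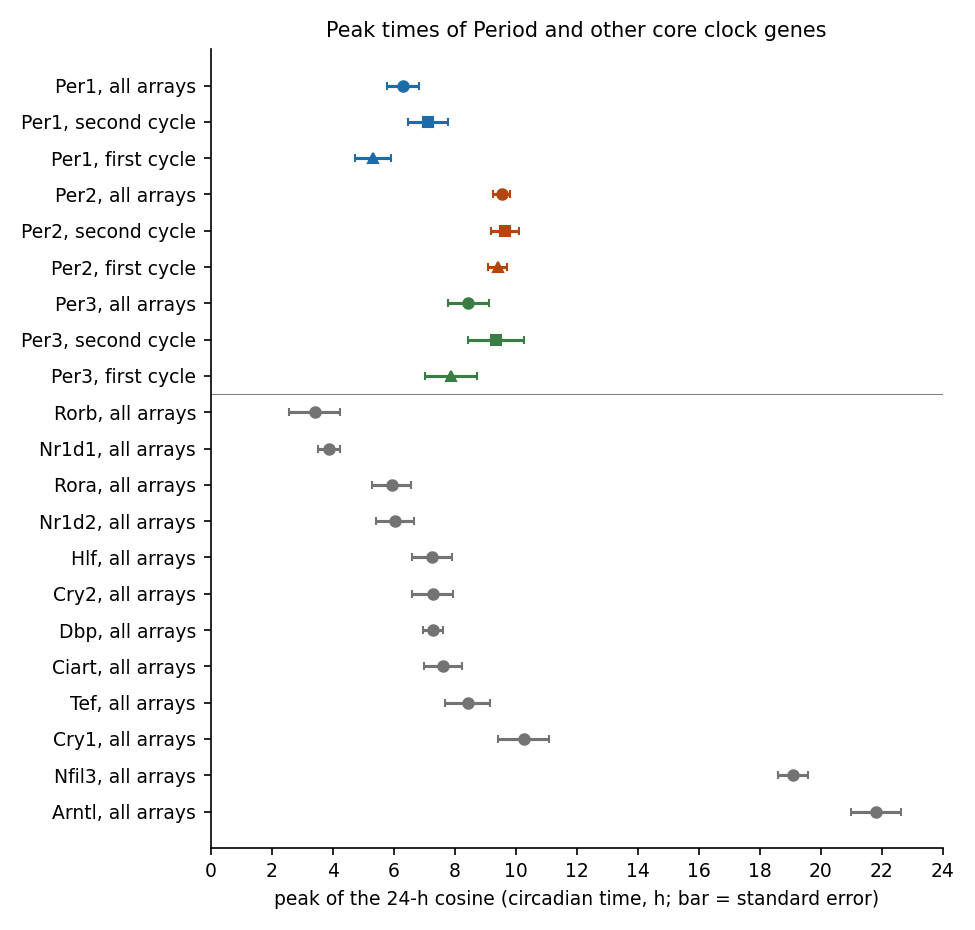
Peak of the fitted 24-h cosine (horizontal axis, circadian time in hours, bars are SE) for the Period genes on all arrays, in the second cycle and in the first cycle, above the 12 other core clock genes called rhythmic. The Period genes lie between 5.31 and 9.65 h, and Nfil3 (19.1 h) and Arntl (21.8 h) lie in the subjective night.

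In the reported fit, genes for the enzymes that modify PER proteins were called about as often as genes at large. Of 17 tested kinases, phosphatases, ubiquitin ligase subunits and other modifiers, 1 was called (5.88%, against 7.65% of all tested genes), with a median amplitude of 0.08 over the 17 against 0.07 over all genes. It was Ppp1ca, a catalytic subunit of protein phosphatase 1, which removes phosphate from PER proteins (amplitude 0.23 ± 0.06, peak 1.77 ± 0.996 h, limma adjusted p = 0.0421). The call was not stable, since 0 of the 17 genes were called with no filter on dim genes or with pituitary or SCN markers as covariate, and leaving out single arrays moved the count between 0 and 2. The casein kinase genes Csnk1d and Csnk1e, named after their values were seen, had amplitudes of 0.06 ± 0.03 and 0.12 ± 0.04 (limma adjusted p = 0.374 and 0.132). Of 11 genes for proteins found in PER complexes 0 were called by limma (against 7.65% of all tested genes), 6 had an unadjusted p under 0.05 (against 27.5% of all tested genes), and the median amplitude was 0.09. The smallest p in that list belonged to Sfpq, an RNA-binding partner of NONO (amplitude 0.10 ± 0.03, limma adjusted p = 0.0676), and Wdr5, a subunit of histone methyltransferase complexes (0.09 ± 0.03, limma adjusted p = 0.0712).

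Of 14 genes of the cAMP, calcium and light input to the Per1 and Per2 promoters, 3 were called (21.4%, against 7.65% of all tested genes), with a median amplitude of 0.07 over the list, as over all genes. Sik1, a kinase that restrains CREB coactivators and the light response of the clock, peaked at 4.28 ± 0.35 h (amplitude 0.38 ± 0.03, limma adjusted p of its rhythm = 3.00e-07). That is 2.02 h ahead of Per1, a lag that was not tested. Vipr2, the receptor for vasoactive intestinal peptide, peaked at 20.5 ± 0.75 h, in the night (0.38 ± 0.07, limma adjusted p = 0.00942). Camk2a, a calcium-dependent kinase, peaked at 3.31 ± 0.73 h (0.19 ± 0.04, limma adjusted p = 0.00726).

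The genes most like each Period gene were ranked by Pearson r over the 24 arrays among 13955 other tested genes. These are the extremes of a ranking and carry no test, and all arrays share the 24-h rhythm. Per1 was most like Dbp (0.85), followed by Leng8 (0.85), Fbxl21 (0.83), which encodes an F-box protein that acts on CRY, Celf3 (0.81), a splicing regulator, and Snx32 (0.80). It was most opposite to Fxr1 (-0.80) and Hnrnpm (-0.79), which encode RNA-binding proteins, and to Chordc1 (-0.78), an HSP90 cochaperone.

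Per2 was most like Mt2 (0.82), a metallothionein, followed by Fibp (0.79), Dbp (0.79), Rbm3 (0.79), a cold-inducible RNA-binding protein, and Rad18 (0.79), a ubiquitin ligase of DNA repair. It was most opposite to Hsph1 (-0.86), a heat shock chaperone, Stip1 (-0.84), an HSP70 and HSP90 cochaperone, and Gm10561 (-0.83). Per3 was most like Rbm3 (0.79), Rad18 (0.77), Rora (0.77), Mt2 (0.77) and Nrbp2 (0.77), and most opposite to Khdrbs3 (-0.73), Ankef1 (-0.73) and Pacsin2 (-0.73). Per2 and Per3 thus shared Mt2, Rbm3 and Rad18 among their 5 nearest genes, and Per1 and Per2 shared Dbp. Among themselves, Per3 ranked 10th for Per2 (r = 0.75), Per3 ranked 67th for Per1 (r = 0.71), and Per2 ranked 332nd for Per1 (r = 0.60). Nrbp2, Hnrnpm, Ankef1 and Pacsin2 were not called rhythmic (limma adjusted p = 0.0789, 0.0566, 0.174 and 0.278).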

How the data were processed

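Per the labels, total RNA of the SCN, pooled from 3 mice for each time, was amplified with the NuGen Pico WTA V2 kit, labelled with biotin and hybridised to 1 array per time. The authors deposited log2 intensities, 1 per probe set and array, after normalisation across arrays with RMA 1.3.1.187 in Affymetrix Expression Console, per the submitters' processing notes; background settings and genome build were not given in the sources used here. RMA compresses changes of dim probe sets, and levels were not compared between genes. Amplitudes were compared between genes, and the part of this compression and of probe response in them was not tested.

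The table has 35556 probe sets, and the platform annotation gives a single gene symbol for 21789 of them and several for 1621, and does not list 12146. RefSeq (GRCm38.p6) held the Entrez identifiers of 21698, with 0 changes of symbol. For a gene with several probe sets (999 of 19938) the one of highest mean was used, and 13956 above the 30th percentile of gene means (log2 5.52) were tested.

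Rhythms were fitted with cosine and sine terms in limma 3.58.1 (R 4.3.3) with eBayes and Benjamini-Hochberg adjustment over all tested genes, at a threshold of 0.05, with 21 residual degrees of freedom for the 24-h fit. Moderated F tests covered the 24-h terms, the 12-h terms beside them and the interaction of cycle and rhythm, and a moderated test the cycle term. Permutation tests drew 100000 resamples and sign flips all 4096 patterns, two-sided, in Python 3.11.15 with NumPy 2.4.6, pandas 2.3.3 and SciPy 1.17.1. Figures were drawn with matplotlib 3.10.9. Standard errors of peaks and of their differences come from the delta method, with the residual covariance of both genes. The limma tests and the difference in peak time from the 24-h cosine were tried on simulated data, and the other tests were not. In the simulated pairs both genes had equal noise, whereas the residual SD was 0.17 for Per1, 0.11 for Per2 and 0.14 for Per3. The number of arrays limits the precision.

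Alternatives changed the filter, probe sets, normalisation, weights, prior, period, covariates and arrays. The Period genes, the gene lists and the tests were chosen with earlier results of these data known. The text names the Period genes, each measured core clock gene, each called member of the other lists or the 2 of smallest p where none was called, and for each Period gene the 5 genes of highest and the 3 of lowest correlation. Listed genes without a probe set of a single symbol were not analysed here.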

Additional observations from a re-analysis of the deposited data

How the results depend on the processing

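All 3 Period genes stayed rhythmic under each of 20 alternatives and with each array left out in turn, at adjusted p of at most 0.0339 and 0.0104 (both Per3). The 12-h component and the changes between cycles of the Period genes kept their side of the threshold, except that the exact sign-flip test of Per1 (0.17) passed, with p = 0.00830 and 0.0249 adjusted for the 3 sign-flip tests. The block of circadian times gave level changes with limma adjusted p of 0.331, 0.685 and 0.494 for Per1, Per2 and Per3. Peaks moved most for Per1, to 5.77 h with linear time, 7.65 h with 12-h terms, 7.12 h in the second cycle and 5.31 h in the first. Per2 moved to 10 h with 12-h terms, and Per3 to 9.33 h with array background as covariate and 9.35 h in the second cycle, with amplitudes of 0.18 in the second and 0.28 in the first. Among the lags, Per2 after Per1 was 2.35 h and Per3 after Per1 0.85 h with 12-h terms, Per3 after Per1 1.69 h without CT 18 to CT 26, and Per2 after Per3 1.57 h with oligodendrocyte markers as covariate (permutation adjusted p = 0.00724). With 1 array left out the lags ranged from 3.08 to 3.44 h (Per2 after Per1), 1.90 to 2.53 h (Per3 after Per1) and 0.57 to 1.45 h (Per2 after Per3). The causes of these moves were not tested.

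Counts over all genes depended on the setting. For the 24-h rhythm they were 1067 in the reported fit, 679 without CT 40, CT 62 and CT 64, 534 with array background, 3412 with oligodendrocyte markers, 665 without CT 18 to CT 26, 695 with SCN markers and 704 to 1440 with 1 array left out (704 without CT 28). For the 12-h component they were 8 at the 50th percentile filter, 8 with a trended prior, 2 after quantile normalisation, 11 after median centring, 0 to 9 with 1 array left out, and 0 with no filter, with all probe sets, without CT 40, CT 62 and CT 64, without CT 18 to CT 26, at the shorter and the longer period and with each of the 5 covariates. For the level change they were 5 with array weights, 66 with array background and 0 to 1 with 1 array left out. Of 17 PER enzymes, 0 were called with no filter, pituitary or SCN covariates or the shorter period. The number was 3 after quantile normalisation, 2 with array weights, 7 with oligodendrocyte markers and 0 to 2 with 1 array left out. Of 11 PER complex genes, it was 2, 2, 5 and 0 to 1 under the last 4 of these. Of 14 input genes, 6 were called with oligodendrocyte markers. The counts over all genes in the same settings are those given above for the 24-h rhythm. The settings without CT 18 to CT 26 and with SCN markers were chosen after seeing the data. The median of other probe sets was not run, since each Period gene has 1, nor was linear time for the tests between cycles. Depth has no count on arrays, and signal over background was not given in the sources used here.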

Other observations

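The departures of the Period genes from their own cosines were also compared array by array. Over the 24 arrays the residuals of Per1 correlated with those of Per3 at r = 0.48 and with those of Per2 at 0.47, and those of Per2 and Per3 correlated at 0.26, as a description without a test. Without CT 40, CT 62 and CT 64 the values were 0.26 for Per1 and Per3, 0.53 for Per1 and Per2, and 0.30 for Per2 and Per3. The array at CT 60 was the farthest above the curve of Per2, by 0.34, and Per1 was 0.29 above its own curve there. The mean of the 13 SCN markers on that array was 0.28 above the series mean. It was highest at CT 46 (0.29), where the residuals were 0.03 for Per2 and -0.09 for Per1. The part of SCN content in these values was not tested.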
